A study of Mus musculus with 15 samples.

Results

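The pluripotency genes Pou5f1, Sox2, Nanog, Sall4, Lin28a, Lin28b, Utf1, Dppa2, Dppa4 and Trim71 were followed from naive embryonic stem cells (ESCs) through epiblast-like cells (EpiLCs) to primordial germ cell-like cells (PGCLCs). They were chosen by name as core or shared factors of the pluripotent state, and are 10 of the 55536 genes in the count table. RNA was sequenced from 15 samples, 3 in each of 5 groups: ESCs kept in 2i and LIF, EpiLCs differentiated for 48 h, and sorted Stella-eGFP+ PGCLCs taken after 2, 4 and 6 days (D2, D4 and D6PGCLCs). Every group, the ESCs and EpiLCs included, carried doxycycline (Dox)-inducible transgenes for Prdm1, Prdm14, Tfap2c and Nanog, the 4 transcription factors (4TF) of the system, and a transgene that couples Stella regulatory sequence to eGFP. Dox was given at 2 µg/ml from day 0 of PGCLC induction, so the ESCs and EpiLCs were sampled without it. The lines are clonal derivatives of a Stella-eGFP ESC line, and the PGCLC groups hold only cells that the cell sorter called eGFP-positive. Nothing in the labels says that the replicates came from separate cultures, so p-values measure the spread between these samples, which may be technical. Gene-level counts do not separate endogenous Nanog from the induced Nanog coding sequence.

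POU5F1 (OCT4) and SOX2 bind DNA side by side at composite elements and, with NANOG, hold the regulatory network of the pluripotent state. SALL4 is a zinc finger partner of these factors, and UTF1 is a chromatin-associated factor of undifferentiated cells. DPPA2 and DPPA4 are neighbouring SAP-domain genes whose products act as a pair and activate genes of the early cleavage embryo, the Zscan4 cluster among them. LIN28A and LIN28B are RNA-binding proteins that block the maturation of let-7 microRNAs, and TRIM71 (LIN41) is an RNA-binding ubiquitin ligase whose transcript is a let-7 target. Germ cells of the early embryo keep much of this network while they leave the primed epiblast state behind.

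The composite OCT-SOX element of the Nanog promoter is shown because the transcripts of both factors that read it, and of Nanog itself, stayed abundant in all 5 groups. Promoter sequences from RefSeq (build GRCm38.p6, 250 bases before and 50 after a start site) matched 7 of the 10 members, with none for Sall4, Dppa2 and Dppa4. They were searched on both strands for TTTGCAT (octamer-like), ACAATG (SOX-like) and a joint form, in which the first is followed, after any 1 base, by the second, so that each joint form also counts as both short ones. In the Nanog promoter that begins at the annotated gene start, the joint form ran from base -75 to base -62 relative to the start site, and it is in capitals here.
Nanog chr6:122707239-122707538, plus strand: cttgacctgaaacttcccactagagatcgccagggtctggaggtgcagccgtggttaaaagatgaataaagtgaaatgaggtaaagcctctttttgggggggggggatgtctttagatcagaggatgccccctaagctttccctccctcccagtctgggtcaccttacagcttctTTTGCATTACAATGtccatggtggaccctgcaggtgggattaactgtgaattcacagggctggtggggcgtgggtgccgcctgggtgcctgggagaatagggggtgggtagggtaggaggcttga
Of all 32851 promoters of this length, 4.63% held the octamer-like letters, 12.6% the SOX-like letters and 0.00609% (2 sequences) the joint form. Both of those 2 sequences are Nanog promoters, from start sites 76 bases apart. The Sox2 promoter held the octamer-like letters on the reverse strand 99 bases before its start site, the Lin28a promoter the SOX-like letters on the reverse strand 96 bases before its own, and 1 of the 2 Pou5f1 promoters the SOX-like letters. A match of letters is a description and not evidence of binding. Nanog transgene expression does not run from this promoter, since the construct holds the coding sequence under a Dox-inducible one.

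LIN28 proteins recognise GGAG in the loop region of let-7 hairpins, so a hairpin, the mature let-7 strands and the matching sites in member transcripts are given beside them. The RefSeq table held 12 hairpins of the let-7 family, and 9 of the 12 contain GGAG, in capitals in the let-7g hairpin. The 9 distinct 5p strands share 1 seed, bases 2 to 8, in capitals in the mature sequences.
let-7g hairpin chr9:106178840-106178927, plus strand: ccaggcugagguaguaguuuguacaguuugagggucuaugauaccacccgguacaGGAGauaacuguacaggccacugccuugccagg
let-7a-5p: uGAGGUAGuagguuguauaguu
let-7g-5p: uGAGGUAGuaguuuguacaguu
let-7i-5p: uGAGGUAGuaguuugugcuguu
The complement of that seed, CTACCTC, was searched on the sense strand of the 3′ UTR of the longest coding transcript of each gene (GENCODE M21). The counts were 4 copies in Trim71, 4 in Lin28b, 2 in Lin28a and 1 in Sall4, and 0 in Pou5f1, Sox2, Nanog, Utf1, Dppa2 and Dppa4. Among 20532 protein-coding genes, 9.03% held at least 1 copy and 1.1% at least 2. The first site of each, with CTACCTC in capitals and all on the minus strand, reads as follows.
Lin28a chr4:134005189-134005217: tggagtgcacagcctgttgaaCTACCTCa
Lin28b chr10:45381022-45381050: cccttcacccgggcgggaagtCTACCTCa
Trim71 chr9:114512472-114512500: aagtacaacattgcctaagtcCTACCTCa
Sall4 chr2:168748940-168748968: gatgtgagggctttaatttatCTACCTCa
Mature microRNAs were not measured in these libraries, so what follows on the let-7 axis concerns messenger RNA only.

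Library totals were between 22555021 and 42725681 counts, and 3 counts correspond to at most 0.132 CPM (counts scaled to a common library size) in any library. The members had between 390 counts (Lin28b) and 39542 counts (Pou5f1) in a library, so all 10 passed the filter on low counts, as did 18090 genes in all. D6PGCLC replicate 1 had 18061 genes with a count, against 21103 to 24343 in the other 14 libraries, and differences of D6PGCLCs that cross the threshold without it are given both ways. The labels were checked against markers. Summed over 7 markers of naive ESCs, the level was 2307 to 2364 CPM in ESCs, 273 to 311 CPM in EpiLCs and 1102.5 to 1399.8 CPM in PGCLCs. The 5 EpiLC markers summed to 2815 to 3046 CPM in EpiLCs and at most 218 CPM in every other library. The 7 PGC markers summed to 894 to 1111 CPM in PGCLCs, 164 to 173 CPM in ESCs and 311 to 339 CPM in EpiLCs; 3 of these (Prdm1, Prdm14 and Tfap2c) are also transgenes, and Dppa3 is Stella, the gene whose reporter set the sort gate. Marker lists of mesoderm, endoderm, trophoblast and fibroblasts summed to at most 40.9, 17.1, 61.8 and 24.9 CPM in any library, the endoderm maximum being in D6PGCLCs, and that of neural cells to 65.9 to 175 CPM. The endoderm marker Ttr had no count in any library.

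Pou5f1, which encodes the POU-domain factor OCT4 (chr17:35506018-35510772), was the most abundant member and the flattest. Its levels, in CPM scaled by the trimmed mean of M values (TMM), in ESCs were 1091, 975 and 1012, in EpiLCs 974, 888 and 962, and in D2PGCLCs 944, 1033 and 1049.8. They were 876, 1089 and 1089 in D4PGCLCs and 771, 871 and 826 in D6PGCLCs. The 3 D6PGCLC libraries lay below every library of the other groups, and no difference among the other 4 groups passed the threshold. D6PGCLCs were lower than ESCs by a log2 fold change of -0.32 ± 0.09 (SE; edgeR quasi-likelihood test, Benjamini-Hochberg adjusted p = 0.00478) and lower than D4PGCLCs by -0.31 ± 0.09 (adjusted p = 0.0265). The second difference missed the threshold with plain library totals in place of TMM (adjusted p = 0.0948) and without D4PGCLC replicate 2, D4PGCLC replicate 3, D6PGCLC replicate 1 or D6PGCLC replicate 3 (0.105, 0.0886, 0.111 and 0.0586). Against EpiLCs, D6PGCLCs were at -0.19 ± 0.09, which missed the threshold (adjusted p = 0.0648). It passed under 5 alternatives, DESeq2 among them (adjusted p = 0.0149), and was 0.016 with plain library totals. Plain library totals also took EpiLCs below ESCs (-0.23, adjusted p = 0.0253) and D4PGCLCs above EpiLCs (0.23, adjusted p = 0.0226). In these sorted but bulk samples, fewer cells of a type and less RNA per cell cannot be told apart. Between EpiLCs and D2PGCLCs, the step at which the transgenes were switched on, the change was 0.10 ± 0.09 (adjusted p = 0.353).

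Sox2, the HMG-box partner of OCT4 (chr3:34650405-34652461), was higher in all PGCLC groups than before induction. Levels were 291, 286 and 285 CPM in ESCs and 250.1, 269 and 295 CPM in EpiLCs, and the 2 groups overlapped. In D2PGCLCs they were 465, 478 and 481 CPM, in D4PGCLCs 370.0, 418 and 418 CPM, and in D6PGCLCs 339.7, 403 and 393 CPM. No PGCLC library overlapped an ESC or EpiLC library. The rise from EpiLCs to D2PGCLCs was 0.81 ± 0.08 on the log2 scale, or 1.75-fold (adjusted p = 1.4e-07), which is under the 2-fold cutoff. D6PGCLCs were below D2PGCLCs by -0.33 ± 0.08 (adjusted p = 0.00405), but with plain library totals that difference was -0.16 (adjusted p = 0.106). Sox2 lies inside the same-strand noncoding gene Sox2ot, with which it shares no exon base, and Sox2ot stood at no more than 1.44 CPM in any group mean.

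Nanog, the homeodomain factor that is also one of the 4 transgenes (chr6:122707489-122714633), fell to its lowest level in EpiLCs and was higher in PGCLCs. Its levels were 689, 698 and 686 CPM in ESCs and 462, 582 and 583 CPM in EpiLCs. PGCLCs stood at 789.8, 845 and 889 CPM on day 2, 691, 851 and 759.6 CPM on day 4 and 720.1, 848 and 637 CPM on day 6. EpiLC libraries lay below those of every other group, whereas the PGCLC days overlapped each other. EpiLCs were 1.27-fold below ESCs (log2 fold change -0.35 ± 0.11, adjusted p = 0.0102), a difference that was -0.23 (adjusted p = 0.0855) without EpiLC replicate 1. D2PGCLCs were 1.55-fold above EpiLCs (0.63 ± 0.11, adjusted p = 6.3e-05), and the D4 and D6PGCLCs were 0.50 ± 0.11 and 0.44 ± 0.11 above them (adjusted p = 0.000597 and 0.00174). Dox, and with it the Nanog transgene, began between these groups, so endogenous and transgene transcripts cannot be told apart in the rise. Against ESCs, D2PGCLCs were 0.28 ± 0.11 higher (adjusted p = 0.0339), a difference that missed the threshold under 6 alternatives. The D4 and D6PGCLCs differed from ESCs by 0.15 ± 0.11 and 0.09 ± 0.11 and missed it (adjusted p = 0.251 and 0.498). The 2 Nanog pseudogenes in the annotation that could share its reads, Nanog-ps1 and Nanog-ps2, had 3 counts or fewer in every library.

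**Figure D1:**
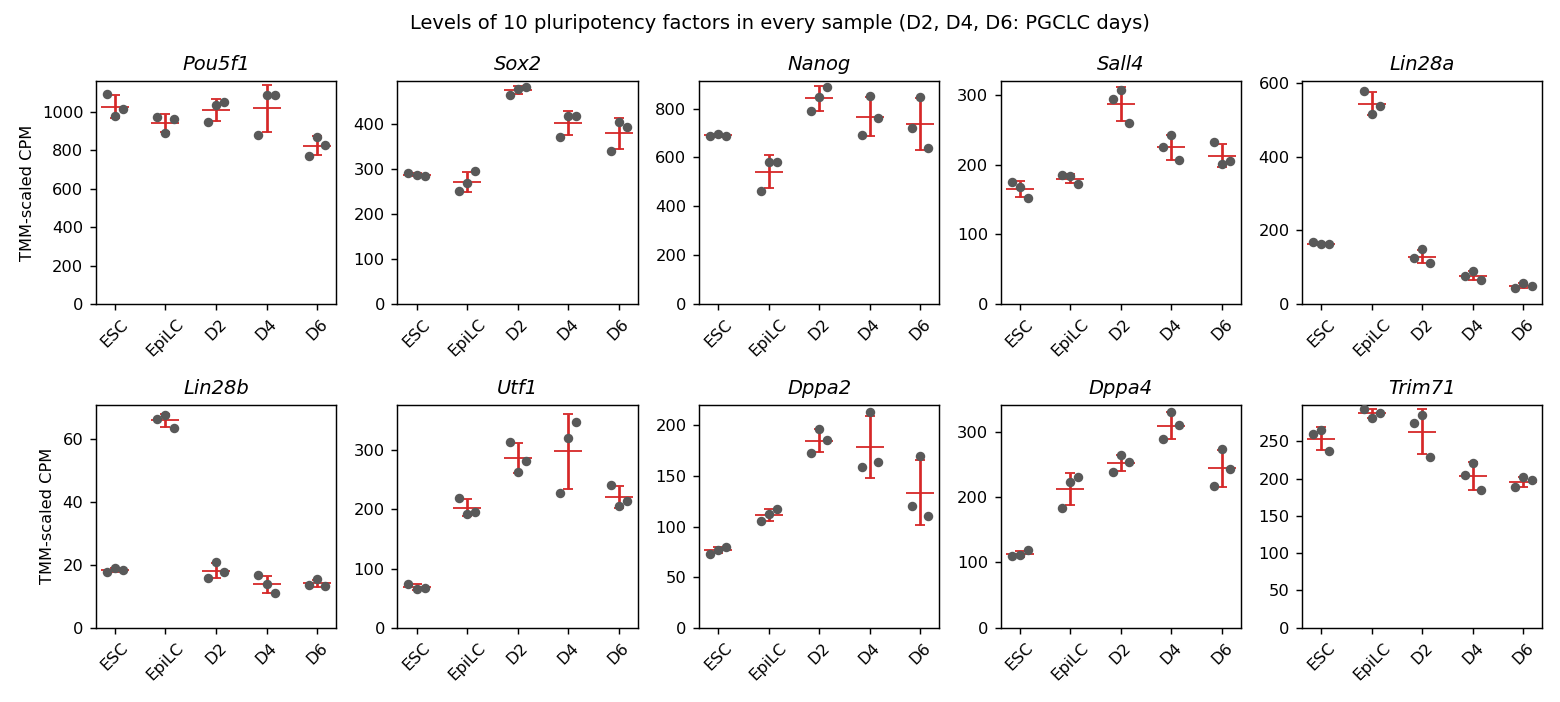
TMM-scaled CPM of the 10 genes in each of the 15 samples; grey points are the 3 replicates, red bars the group mean ± SD, and every axis starts at 0. Lin28a and Lin28b peak in the EpiLCs, Utf1, Dppa2 and Dppa4 stand above the ESCs in all other groups, and Pou5f1 stays between 771 and 1091 CPM in every sample.

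Sall4, a zinc finger factor of pluripotent and germ cells (chr2:168748332-168767943), was raised in PGCLCs, most on day 2. ESCs had 175, 168 and 152 CPM, EpiLCs 185, 184 and 172 CPM and D2PGCLCs 295, 308 and 259.6 CPM. Days 4 and 6 followed with 226, 243 and 207 CPM and with 233, 201 and 206 CPM, above all ESC and EpiLC libraries. The rise from EpiLCs to D2PGCLCs was 0.67 ± 0.09 (adjusted p = 3.3e-06), and D4PGCLCs were below D2PGCLCs by -0.35 ± 0.09 (adjusted p = 0.0137). That decline was -0.37 (adjusted p = 0.0526) when only these 2 groups were fitted, and its adjusted p was 0.0539, 0.0583 and 0.0645 without D2PGCLC replicate 1, D2PGCLC replicate 2 or D4PGCLC replicate 3. D6PGCLCs were higher than EpiLCs by 0.24 ± 0.09 (adjusted p = 0.0235), but with adjusted p = 0.0532 under DESeq2 and 0.107 and 0.0758 without D6PGCLC replicate 1 or EpiLC replicate 3. Sall4 was the only one of the 4 SALL genes with a higher mean in D2PGCLCs than in EpiLCs: Sall2 went from 33.6 ± 3.07 to 1.02 ± 0.39 CPM (SD, n = 3) and Sall3 from 4.16 ± 1.41 to 1.77 ± 0.21 CPM, both called lower (adjusted p under 0.05 and over 2-fold), and Sall1 had a log2 fold change of -0.36 ± 0.08. Sall3 lost its call without EpiLC replicate 1.

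Lin28a (chr4:134003330-134018841) and Lin28b (chr10:45376620-45486395) moved most of the 10 members, up in EpiLCs and down again in PGCLCs. For Lin28a, ESCs had 168, 163 and 162 CPM, EpiLCs 579.7, 517 and 539 CPM and D2PGCLCs 125, 149 and 113 CPM. On day 4 its levels were 75.9, 90.6 and 65.7 CPM and on day 6 they were 43.8, 56.5 and 48.8 CPM. All 5 groups were separate from each other, and the order from highest to lowest was EpiLCs, ESCs, then PGCLCs by day, each neighbour past the adjusted p threshold. EpiLCs were 3.32-fold above ESCs (1.73 ± 0.12, adjusted p = 5.8e-10). D2PGCLCs were 4.23-fold below EpiLCs (-2.08 ± 0.12, adjusted p = 6.6e-11), and the distance from EpiLCs grew to 7.05-fold on day 4 and 10.97-fold on day 6 (-3.46 ± 0.13, adjusted p = 1.6e-13). Between day 2 and day 6 Lin28a fell by 1.37 ± 0.12 on the log2 scale (adjusted p = 1.2e-07), and it was -1.28 without D6PGCLC replicate 1 and -1.21 with plain library totals. By day 6 it was also 3.30-fold below naive ESCs (-1.72 ± 0.12, adjusted p = 8.9e-10). The smallest of these steps, D2PGCLCs below ESCs by -0.35 ± 0.12 (adjusted p = 0.0174), missed the threshold without ESC replicate 1, D2PGCLC replicate 1 or D2PGCLC replicate 3 (adjusted p = 0.0539, 0.063 and 0.105).

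Lin28b was far less abundant and shared only the first part of that course. ESCs had 17.6, 18.9 and 18.4 CPM, EpiLCs 66.3, 67.7 and 63.4 CPM and D2PGCLCs 15.9, 20.7 and 17.7 CPM. Days 4 and 6 stood at 16.6, 13.7 and 11.2 CPM and at 13.6, 15.4 and 13.3 CPM. EpiLC libraries were all above 60 CPM and no other library reached 21 CPM. EpiLCs were 3.59-fold above ESCs (1.85 ± 0.13, adjusted p = 9.5e-10), and D2PGCLCs were 3.64-fold below EpiLCs (-1.86 ± 0.13, adjusted p = 9.4e-10). Against ESCs, D2PGCLCs differed by -0.02 ± 0.13 (adjusted p = 0.925). D6PGCLCs were below ESCs by -0.38 ± 0.13 (adjusted p = 0.0206). That difference missed the threshold under 5 alternatives, among them without D6PGCLC replicate 1 (-0.33, adjusted p = 0.0698). From day 2 to day 6 the difference was -0.36 ± 0.13 (adjusted p = 0.0361), which was -0.20 (adjusted p = 0.259) with plain library totals and also missed the threshold without D2PGCLC replicate 2, D2PGCLC replicate 3, D6PGCLC replicate 1 or D6PGCLC replicate 3 (adjusted p = 0.164, 0.0616, 0.0974 and 0.108). Over the 15 samples the log2 CPM of Lin28a and Lin28b had a Pearson correlation of 0.929, a description over samples that share groups. The fibroblast marker list also peaked in EpiLCs, where it summed to 24.0 to 24.9 CPM against 0.919 to 8.41 CPM elsewhere. Its highest genes in EpiLCs were Thy1 (12.8 ± 1.80 CPM, and 5.80 ± 0.21 CPM in ESCs) and Dcn (5.83 ± 0.99 CPM). Dcn had at most 3 counts in every library of the other groups, and Lum had no count in any EpiLC library. The part of this list in the Lin28a and Lin28b values was not tested.

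Trim71, the let-7 target with 4 seed matches (chr9:114507133-114564369), also had its highest mean in EpiLCs, but by a difference from ESCs that missed the threshold. It stood at 259, 265 and 236 CPM before differentiation, in ESCs, at 293, 281 and 288 CPM in EpiLCs and at 275, 285 and 229 CPM on day 2. The later days were lower, with 205, 221 and 185 CPM on day 4 and 188, 202 and 197 CPM on day 6, all under every ESC and EpiLC library. D4PGCLCs were below D2PGCLCs by -0.37 ± 0.09 (adjusted p = 0.0102), but with adjusted p = 0.0592 when only these 2 groups were fitted. Without D2PGCLC replicate 1, D2PGCLC replicate 2 or D4PGCLC replicate 3 the adjusted p was 0.0526, 0.0516 and 0.0552. D6PGCLCs were below EpiLCs by -0.55 ± 0.09 (adjusted p = 2.5e-05) and below D2PGCLCs by -0.42 ± 0.09 (adjusted p = 0.00091), and -0.34 and -0.26 with plain library totals (adjusted p = 0.00212 and 0.0241). The EpiLC level was 0.18 ± 0.09 above that of ESCs (adjusted p = 0.0879), and this small difference passed the threshold under DESeq2 (adjusted p = 0.0348) and with those 2 groups alone (0.013). Over the 15 samples its log2 CPM had a Pearson correlation of 0.877 with Lin28a and 0.737 with Lin28b, again a description.

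The let-7 pathway was called at about the rate of all genes at the step out of EpiLCs. Of 12 let-7 pathway factors, all tested, 2 were called lower in D2PGCLCs than in EpiLCs, Lin28a and Lin28b themselves, and 1 was called higher, against 25.4% of all genes called. Dgcr8, the RNA-binding partner of the Drosha nuclease, went from 45.3 ± 5.71 to 102 ± 6.97 CPM (log2 fold change 1.17 ± 0.11). Of 15 let-7 target genes, 4 were called lower, 1 higher and 10 not at that step, with a median log2 fold change of -0.15 beside 0.00 over all genes tested. Ccnd2 and Ccnd1, the D-type cyclins, went from 20.6 ± 3.63 to 1.80 ± 0.16 CPM and from 150.4 ± 8.85 to 30.9 ± 1.68 CPM, while Arid3a, a DNA-binding ARID factor, went from 13.2 ± 1.91 to 34.0 ± 3.79 CPM. The search of their 3′ UTRs found 0 matches in both cyclins and 2 in Arid3a. In D6PGCLCs against EpiLCs 5 targets were called lower and 2 higher, Arid3a and E2f5, with a median of -0.46 beside 0.03 over all genes, of which 27.9% were called. D6PGCLCs against ESCs had 2 targets called lower, Ccnd1 and Igf2bp3, and none higher, and of the pathway factors only Lin28a was called, lower, where 26.2% of all genes were called. Lin28b and Trim71 are counted in both lists.

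Utf1, which encodes a chromatin-associated factor of undifferentiated cells (chr7:139943789-139945112), had its lowest level in naive ESCs. Its levels were 74.7, 66.0 and 66.7 CPM in ESCs and 219.6, 193 and 196 CPM in EpiLCs. PGCLCs stood at 315, 264 and 282 CPM on day 2, 227, 320.1 and 349 CPM on day 4 and 242, 205 and 215 CPM on day 6. Every later library was at 193 CPM or above. EpiLCs were 2.93-fold above ESCs (1.55 ± 0.13, adjusted p = 5.6e-09) and D2PGCLCs 4.15-fold (2.05 ± 0.13, adjusted p = 1.6e-10). The further rise from EpiLCs to D2PGCLCs was 0.50 ± 0.12 (adjusted p = 0.00196), and by day 6 the level was 0.12 ± 0.12 from that of EpiLCs (adjusted p = 0.411). The day 4 libraries spread the widest, 299 ± 63.5 CPM (SD, n = 3). D6PGCLCs were below D4PGCLCs by -0.44 ± 0.12 (adjusted p = 0.0239) although the groups overlapped, and below D2PGCLCs by -0.38 ± 0.12 (adjusted p = 0.0197); with plain library totals the adjusted p values were 0.077 and 0.187. The first also missed the threshold without D4PGCLC replicate 2 or 3 or D6PGCLC replicate 2 or 3 (adjusted p from 0.0628 to 0.113), and the second without D2PGCLC replicate 1 or D6PGCLC replicate 2 or 3 (0.0544 to 0.0893).

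Dppa2 (chr16:48303908-48319723) and Dppa4 (chr16:48283733-48294237), whose annotated bodies lie 9670 bases apart on the same strand, rose through EpiLCs into PGCLCs. Dppa2 was at 73.3, 77.1 and 79.9 CPM in ESCs, at 106, 112 and 117 CPM in EpiLCs and at 173, 197 and 186 CPM on day 2. It was then 159, 213 and 164 CPM on day 4 and 120.0, 170.2 and 111 CPM on day 6. ESC, EpiLC and D2PGCLC libraries were separate, and replicate 2 was the highest on both later days. Dppa2 was 1.46-fold above ESCs in EpiLCs (0.54 ± 0.13, adjusted p = 0.00203), rose again by 0.73 ± 0.13 to D2PGCLCs (adjusted p = 0.000133) and was then 2.41-fold above ESCs (1.27 ± 0.13, adjusted p = 2.3e-07). It was lower on day 6 than on day 4 by -0.42 ± 0.13 (adjusted p = 0.0417), a value that missed the threshold under 11 alternatives, among them without D6PGCLC replicate 1 (-0.35, adjusted p = 0.155) and without D4PGCLC replicate 2 (-0.27, 0.218), and lower than on day 2 by -0.47 ± 0.13 (adjusted p = 0.00875; 0.0564 without D6PGCLC replicate 3 and 0.0592 with plain library totals).

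Dppa4 was more abundant and had its highest mean on day 4, although the step from day 2 missed the threshold (0.30 ± 0.10, adjusted p = 0.0507; 0.0245 with DESeq2, 0.0115 with plain library totals and 0.0333, 0.0383, 0.0346 and 0.0402 without EpiLC replicate 1, D4PGCLC replicate 1, D6PGCLC replicate 1 and D6PGCLC replicate 2). ESCs had 109.6, 111 and 119 CPM and EpiLCs 184, 222 and 231 CPM. The PGCLCs had 239, 263 and 254 CPM on day 2, 288, 329.8 and 309 CPM on day 4 and 217, 273 and 242 CPM on day 6. All libraries of the other groups were above all ESC libraries. EpiLCs were 1.88-fold above ESCs (0.91 ± 0.10, adjusted p = 2.4e-07), just under the 2-fold cutoff, and 1.02 on the log2 scale without EpiLC replicate 1. D4PGCLCs were 2.73-fold above ESCs (1.45 ± 0.10, adjusted p = 4.9e-10). The step from EpiLCs to D2PGCLCs was 0.25 ± 0.10 (adjusted p = 0.036), and it missed the threshold under DESeq2 (adjusted p = 0.0731) and without EpiLC replicate 1, D2PGCLC replicate 2 or D2PGCLC replicate 3 (adjusted p = 0.193, 0.101 and 0.0755). After day 4 Dppa4 was lower by -0.34 ± 0.10 (adjusted p = 0.0246), but missed the threshold with plain library totals (adjusted p = 0.0785) and without D4PGCLC replicate 2 or 3 or D6PGCLC replicate 1 or 3 (0.0508 to 0.122). On day 6 it was 0.20 ± 0.10 above EpiLCs, which missed the threshold (adjusted p = 0.0782). That difference passed under 4 alternatives, among them without D6PGCLC replicate 1 (0.29, adjusted p = 0.0203).

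Genes that DPPA2 and DPPA4 are known to activate were low in all groups and highest in EpiLCs. Of 14, 11 were tested, and all 11 had their highest mean in EpiLCs. Zscan4b and Tdpoz4 reached 10 counts only in EpiLC libraries, through which they passed the filter. The direction of these genes to and from EpiLCs is thus in part set by the filter and supports nothing. Usp17le and Zscan4f also had at least 33 and 38 counts in every D6PGCLC library, so they did not pass through EpiLCs alone. For the rest of the 11, the part of the filter was not tested. In EpiLCs 9 of the 11 were called higher than in ESCs, beside 26.2% of all genes called in either direction. All 11 were called lower in D2PGCLCs than in EpiLCs, beside 25.4% of all genes called. Their median log2 fold change was -6.50, or -5.84 with the 3 genes without a D2PGCLC count at their bound. Zscan4b, a gene of the cleavage-stage Zscan4 cluster, stood at 2.96 ± 0.88 CPM in EpiLCs and had no count in D2PGCLCs, at least 90.8-fold lower against a floor of 3 counts over the group. Tdpoz4 went from 0.727 ± 0.33 CPM to no count, at least 21.7-fold lower on the same floor. In D6PGCLCs 10 of the 11 were called lower than in EpiLCs, beside 27.9% of all genes called. Usp17le and Zscan4f, 2 of the 11, were called higher than in ESCs, beside 26.2%. They stood at 1.73 ± 0.80 and 1.45 ± 0.33 CPM against 0.487 ± 0.30 and 0.545 ± 0.25 CPM. Leaving out any 1 ESC replicate reduced those 2 to 1. Against D2PGCLCs, where they were lowest or near 0, 7 of the 11 were called higher in D6PGCLCs, with a median of 3.72. In that comparison 13.6% of all genes were called, 10.9% higher. Against D4PGCLCs 6 were called higher in D6PGCLCs, beside 3.08% of all genes called, 2.29% higher. The Zscan4, Usp17 and Tdpoz genes have near-identical copies, so the split of reads between them is uncertain.

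The share of members called was close to that of all genes in most comparisons. Between ESCs and EpiLCs 3 of the 10 were called, Utf1, Lin28a and Lin28b, all higher, beside 26.2% of all genes called, and at the step from EpiLCs to D2PGCLCs 2, Lin28a and Lin28b, both lower, beside 25.4%. No member was called between days 2 and 4 or between days 4 and 6, where 2.94% and 3.08% of all genes were. By adjusted p alone 3 members passed at the first of these steps, Sall4, Lin28a and Trim71, and 5 at the other, Pou5f1, Utf1, Lin28a, Dppa4 and Dppa2, all lower, beside 11.9% and 12.8% of all genes. With plain library totals the 5 became 1, Lin28a, and without D6PGCLC replicate 1 Pou5f1, Dppa4 and Dppa2 missed the threshold (adjusted p = 0.111, 0.122 and 0.155). From day 2 to day 6 only Lin28a was called, beside 13.6%. By adjusted p alone 8 members were lower on day 6 and none higher, beside 18.2% of genes lower and 19.5% higher. Those 8 became 3, Sall4, Lin28a and Trim71, with plain library totals, a scaling that moves the median gene by 0.165 on the log2 scale in this comparison, so the small day 2 to day 6 declines of Pou5f1, Sox2, Lin28b, Utf1 and Dppa2 depend on the scaling. Without D6PGCLC replicate 1, Pou5f1 and Lin28b missed the threshold (adjusted p = 0.0635 and 0.0974). The 6 endoderm markers moved with these declines, from a sum of 1.35 to 1.54 CPM on day 2 to 8.30 to 17.1 CPM on day 6, mainly through Gata6 (0.244 ± 0.14 to 9.25 ± 4.35 CPM), while Foxa2, Afp and Ttr had at most 3 counts in every D2PGCLC and D6PGCLC library. Their part in the declines was not tested.

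**Figure D2:**
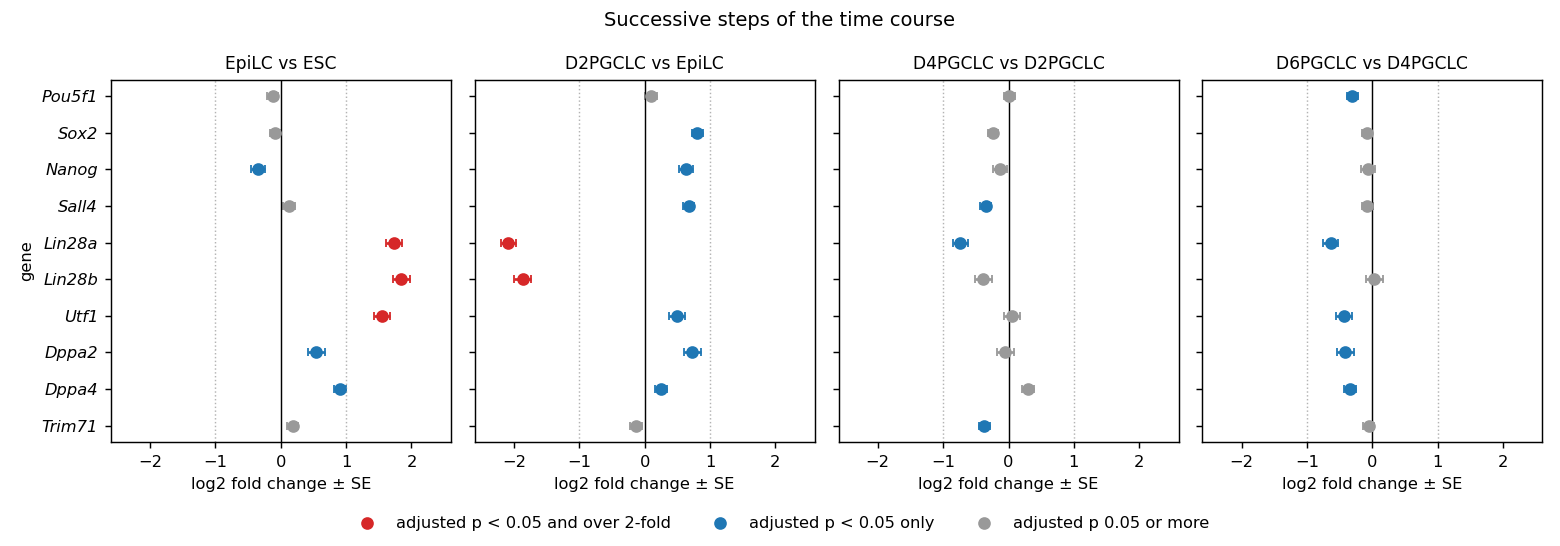
Log2 fold change ± SE of the 10 genes at the 4 successive steps (edgeR, 3 samples a group); red points pass the adjusted p threshold of 0.05 and the 2-fold cutoff, blue points the adjusted p only, grey points neither, and dotted lines mark 2-fold. The red points are Lin28a, Lin28b and Utf1 at the first step and Lin28a and Lin28b at the second.

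Measured from naive ESCs, D2PGCLCs had 3 members called, Utf1, Dppa4 and Dppa2, all higher (24.3% of all genes called). D4PGCLCs had those 3 and Lin28a, lower (24.8%). Lin28a was -1.09 ± 0.12 there and -0.98 without D4PGCLC replicate 3, which takes it below the fold cutoff. D6PGCLCs had Utf1 and Dppa4 higher and Lin28a lower (26.2%), and Dppa2 was 0.80 ± 0.13. Measured from EpiLCs, D4 and D6PGCLCs each had Lin28a and Lin28b called lower and no other member called (26.8% and 27.9%). The median over the members was 0.37 from EpiLCs to D2PGCLCs and -0.37 from D2 to D6PGCLCs, beside 0.00 over all genes tested in both. These comparisons share samples, so they are not independent of each other.

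Per transcript length, the members spanned more than 2 orders of magnitude. In TPM, counts divided by the length of the union of exons and scaled to a common total, Pou5f1 led in ESCs with 1447 ± 44.2, followed by Nanog with 979.9 ± 73.9 and Sox2 with 444 ± 27.4 (SD, n = 3). Dppa4 stood at 217 ± 23.1, Utf1 at 179 ± 1.94, Lin28a at 131 ± 7.31, Dppa2 at 99.9 ± 11.3, Sall4 at 94.7 ± 4.99, Trim71 at 86.2 ± 6.60 and Lin28b at 6.44 ± 0.67 TPM. Pou5f1 thus exceeded 99.7% of the tested genes in ESCs and Lin28b 45.5%. On day 6 Pou5f1, Nanog, Sox2 and Utf1 were at 1339 ± 54.5, 1202 ± 179.6, 673 ± 40.7 and 660.0 ± 78.4 TPM, with the replicates of Nanog overlapping those of Pou5f1 and the replicates of Utf1 those of Sox2, while Lin28a had moved to the second-lowest place with 45.5 ± 5.05 TPM. Utf1 had a higher mean than Sox2 in EpiLCs (526 against 421 TPM), D2PGCLCs (749.6 against 738 TPM) and D4PGCLCs (787 against 634 TPM). The replicates of Utf1 and Sox2 were separate in EpiLCs but overlapped in the D2PGCLCs and D4PGCLCs. In EpiLCs Lin28a stood at 434 ± 7.18 TPM, beside 421 ± 45.7 TPM for Sox2, and the replicates of these genes overlapped.

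Within the paralog pairs, no step in the ratio of transcripts could pass the threshold, since an exact permutation test of 3 against 3 cannot go below p = 0.1. Lin28a exceeded Lin28b per length 20.4-fold in ESCs, 18.8-fold in EpiLCs, 16.1-fold in D2PGCLCs, 12.7-fold in D4PGCLCs and 7.98-fold in D6PGCLCs. As a log2 ratio of Lin28b over Lin28a these are -4.35 ± 0.08, -4.23 ± 0.10, -4.01 ± 0.15, -3.67 ± 0.27 and -3.00 ± 0.11 (SD, n = 3). The D6PGCLC values, -3.06 to -2.87, did not overlap those of any other group, whereas each of the other groups overlapped its neighbour. The step from day 4 to day 6 was 0.67 with p = 0.1 (exact two-sided permutation test), the smallest p that 3 against 3 can give, and 0.2 after adjustment over 8 such tests. Dppa4 exceeded Dppa2 2.17-fold in ESCs, 2.78-fold in EpiLCs, 2.00-fold in D2PGCLCs, 2.57-fold in D4PGCLCs and 2.73-fold in D6PGCLCs. The log2 ratio of Dppa2 over Dppa4 was -1.48 ± 0.11 in EpiLCs and -1.004 ± 0.02 in D2PGCLCs, a difference of 0.47 without overlap (exact permutation p = 0.1, adjusted 0.2), and it went back by 0.36 on day 4.

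**Figure D3:**
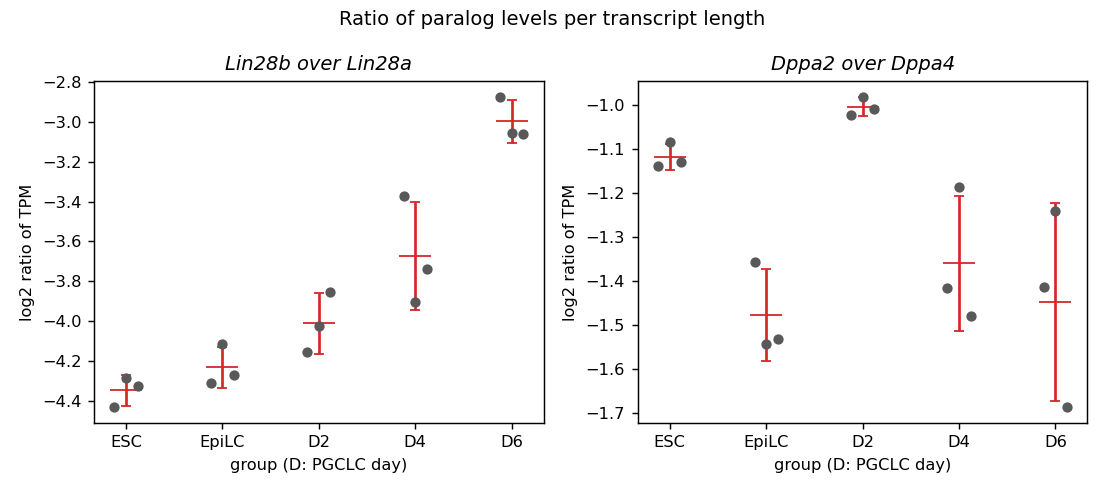
Log2 ratio of TPM within the 2 paralog pairs in each of the 15 samples; grey points are replicates and red bars the group mean ± SD (n = 3), and neither axis starts at 0. The Lin28b over Lin28a ratio lies between -4.43 and -3.37 up to day 4 and at -3.06 or above on day 6, and the Dppa2 over Dppa4 ratio is highest in the D2PGCLCs.

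The families of Pou5f1 and Sox2 were set beside them. Of 12 POU genes tested out of 15, 5 were called lower in D2PGCLCs than in EpiLCs and none was called higher. The other 7, Pou5f1 among them, were not called, where 25.4% of all genes were called. The lower ones were led by Pou3f1 (OCT6), a marker of EpiLCs, at 2.03 ± 0.19 CPM in ESCs, 184 ± 13.2 CPM in EpiLCs and 3.46 ± 1.27 CPM on day 2. Pou4f3, the next lowest, went from 1.15 ± 0.12 to 0.151 ± 0.05 CPM. The count of 5 became 3 without D2PGCLC replicate 3. In D6PGCLCs 2 POU genes, Pou3f3 and Pou4f1, were called higher than in EpiLCs and 3 lower, beside 27.9% of all genes called. Against ESCs, D6PGCLCs had 2 POU genes called higher and 3 lower, beside 26.2%. Among 19 SOX genes, all tested, 9 were called lower and 5 higher at that step, with a median of -1.30 beside 0.00 over all genes. Sox15, another HMG-box factor, rose from 12.7 ± 1.81 to 88.4 ± 10.7 CPM (2.79 ± 0.17, adjusted p = 1.2e-10) and remained at 62.0 ± 15.5 CPM on day 6. Sox3, of the same SOXB1 subgroup as Sox2, fell from 15.2 ± 5.26 to 0.3496 ± 0.21 CPM (-5.42 ± 0.39, adjusted p = 1.5e-09). Sox14 went from 36 counts over the 3 EpiLC libraries to 0 in D2PGCLCs, at least 13-fold lower against a floor of 3 counts over the group. Sox14 and Sox10, both among the genes called lower, reached 10 counts only in EpiLC libraries, through which they passed the filter. Their direction from EpiLCs is thus in part set by the filter and supports nothing. Sox6 went from 0.413 ± 0.39 to 2.34 ± 1.10 CPM. In D6PGCLCs 6 SOX genes were called higher and 6 lower than in EpiLCs, the lower ones including Sox11 at 4.92 ± 1.15 against 56.6 ± 3.14 CPM, beside 27.9% of all genes called. Against ESCs, D6PGCLCs had 8 SOX genes called higher and 1, Sox11, lower, beside 26.2%.

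**Figure D4:**
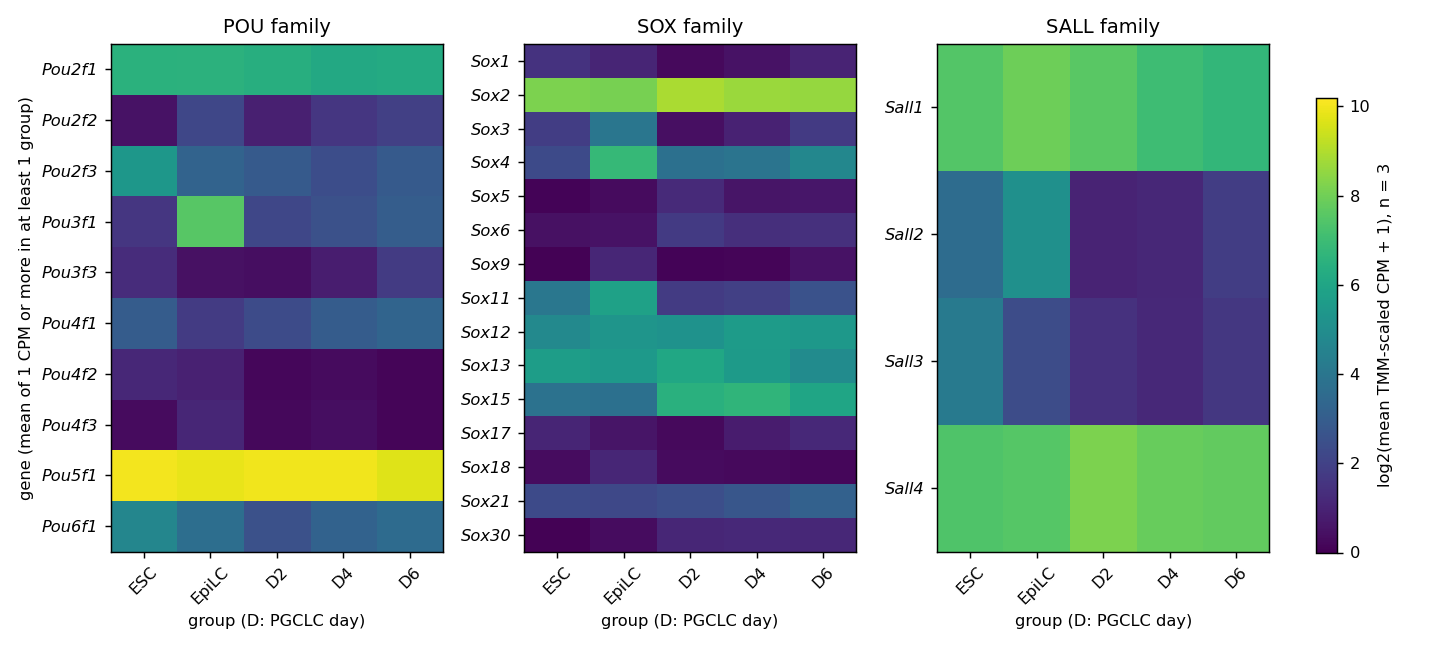
Mean TMM-scaled CPM (n = 3, log2 of CPM + 1, colour) of the POU, SOX and SALL genes that reach a mean of 1 CPM in at least 1 group, by group. Pou5f1, Sox2 and Sall4 stay bright in all 5 columns, Pou3f1 is bright in EpiLCs only (184 CPM), and Sox15 brightens from 12.7 to 88.4 CPM between EpiLCs and D2PGCLCs.

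Other factors of the pluripotency network, 23 genes all tested, moved in both directions. In D2PGCLCs against EpiLCs 5 were called higher, 3 lower and 15 not, beside 25.4% of all genes called, with a median of 0.09. Esrrb, an orphan nuclear receptor of the naive network, was at 590.2 ± 9.16 CPM in ESCs, 66.9 ± 4.62 CPM in EpiLCs and 619.7 ± 36.9 CPM on day 2, and Klf5, a Krüppel-like factor, rose from 19.0 ± 4.02 CPM in EpiLCs to 132 ± 21.5 CPM on day 2. Klf4, its relative, went the other way, from 16.2 ± 1.92 to 5.99 ± 0.39 CPM, and Tdgf1, a NODAL co-receptor, from 656 ± 61.9 to 155 ± 50.03 CPM. On day 6, 5 were higher and 3 lower than in EpiLCs (27.9% of all genes called), L1td1 among the lower, and against ESCs (26.2%) 1 was higher, Dppa3 (475 ± 45.2 against 53.9 ± 2.92 CPM), and 2 lower, Klf4 and Tdgf1. Without D6PGCLC replicate 2 the 3 became 5. Dppa3 is Stella, whose reporter defined the sorted cells.

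Likeness of course over the 15 samples was described by the Pearson correlation of log2 CPM with 8973 protein-coding genes of at least 10 CPM on average, a measure dominated by the 5 group means. Lin28b was closest to Wdr3 and Pim2 (0.991 and 0.987) and Lin28a to Hspa8 and Hmgcs1 (0.989 and 0.988). Utf1 was nearest to Shb and Mta3 (0.985 and 0.982), Dppa4 to Actr3b and Ntpcr (0.978 and 0.975), Sall4 to Scmh1 and Zdhhc13 (0.966 and 0.941), Dppa2 to Mtmr14 and Psmg2 (0.963 and 0.958) and Sox2 to Nfkb1 and Gng12 (0.962 and 0.954). The values were lower for Trim71, nearest to Heatr1 and Samhd1 (0.929 and 0.927), for Nanog, nearest to Bmp4 and Mov10 (0.917 and 0.909), and for the nearly level Pou5f1, nearest to Eif3k and Psmd8 (0.892 and 0.883). Among the members themselves the highest values were those of Utf1 with Dppa4 (0.936), Lin28a with Lin28b (0.929) and Dppa2 with Dppa4 (0.906), and Pou5f1 had none over 0.314. Some members overlap an annotated gene on the opposite strand, Gm19553 at Pou5f1, Gm14261 at Sall4, Gm13061 at Lin28a and C130032M10Rik at Trim71, each under 0.55 CPM in every group mean.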

How the data were processed

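RNA-seq of 15 samples (3 each of ESCs, EpiLCs and D2, D4 and D6PGCLCs, grouped by their labels) was analysed from the raw counts per ENSEMBL gene that the authors deposited, with no normalization. Per the labels, total RNA went into directional libraries, and the submitters' processing notes name Trim Galore, FastQC, STAR and build mm10. The counting tool, the annotation release and whether counting used strand are not given in the sources used here, so a gene and its antisense partner may share reads.

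Symbols, coordinates and exon lengths came from GENCODE M21, which matched all 55536 genes. The 18090 genes kept by filterByExpr (minimum count 10) were scaled by TMM and tested with edgeR 4.0.16 (R 4.3.3), using the quasi-likelihood test with all 15 samples in 1 fit, 10 contrasts and Benjamini-Hochberg adjustment over all tested genes. CPM use TMM-scaled totals. TPM were computed from union exon lengths. DESeq2 1.42.0, other scalings, no filter, a replicate block, pairwise fits and each sample left out were run as alternatives. Plain library totals were added after the data had been seen. The test scripts were checked on simulated counts. Paralog ratios were compared by exact permutation tests.

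The genes named are all 10 members, genes overlapping a member, the 2 genes most like each member, markers, and genes of the lists. Those of the lists were taken from the 2 highest and 2 lowest called genes of each in 3 comparisons. These were D2PGCLCs and D6PGCLCs against EpiLCs and D6PGCLCs against ESCs, and not all such genes are named. Sox10 is named besides, for its low counts. The lists are the POU, SOX and SALL families, let-7 pathway factors, let-7 targets, DPPA2 and DPPA4 targets, network partners and the markers of 8 cell types. The members and lists were chosen with earlier results of these data known. Replicates of a group differed by more than sampling noise, the chi-square divided by the number of genes being 8.82 to 44.6 in 15 pairs. Intervals and floors cover counting error only.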

Additional observations from a re-analysis of the deposited data

Results flagged for a closer look

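Lin28a differed between PGCLC days by over 2-fold: its level on day 6 was -1.37 from that on day 2 on the log2 scale (edgeR quasi-likelihood test, adjusted p = 1.2e-07), with the 3 D6PGCLC libraries (43.8, 56.5 and 48.8 CPM) all below the 3 D2PGCLC libraries (125, 149 and 113 CPM). This is the same contrast as in the report: set relative to EpiLCs on both days, the EpiLC level cancels, so it is not a separate result. Groups of 3 are too small for the test of single outlying samples, which was not run.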

How the results depend on the processing

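Of the 100 differences of a member between 2 groups, 69 passed the adjusted p threshold, and 51 of the 69 stayed past it under all 21 alternatives; 18 missed it and 11 others reached it under at least 1. None of the 69 changed sign. The numbers of members called by comparison (3, 2, 0, 0, 1, 3, 4, 3, 2 and 2, from EpiLCs against ESCs to D6PGCLCs against EpiLCs) stood as they were under DESeq2, its size factors, no filter, the 2 groups alone, plain library totals and a replicate block. The block took 4 member differences over the adjusted p threshold (Sox2, Lin28b and Dppa4 in D4PGCLCs against D2PGCLCs and Dppa4 in D6PGCLCs against EpiLCs) and none under it. Replicate numbers were not taken to pair the samples, since not every same-numbered pair correlated over 0.1 in its deviations from the group means. Their mean was 0.0358 (-0.0285 to 0.208), with 6 of 30 pairs over 0.1, against -0.0179 and 0 of 60 pairs for other numbers. Deviations cancel within a group, so both means are tied and are not an independent contrast. Whether some same-numbered samples shared a batch was not tested. Without EpiLC replicate 1 the count against ESCs was 4, and without D4PGCLC replicate 3 it was 3 for D4PGCLCs against ESCs.

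By adjusted p alone, members numbered 6, 8, 3, 5, 8, 7, 8, 9, 9 and 6 in the same order. Of all genes tested, 52.5, 53.2, 11.9, 12.8, 37.7, 49, 50.8, 53.7, 55.7 and 57.4% passed the same rule. For D2PGCLCs and D6PGCLCs against EpiLCs and D6PGCLCs against ESCs, these shares of all genes were 53.2, 57.4 and 53.7%. In those 3 comparisons the lists had 4, 4 and 4 of 4 SALL genes and 6, 9 and 5 of 12 let-7 pathway factors. They had 9, 14 and 12 of 15 let-7 targets and 19, 19 and 15 of 23 network partners. With 1 sample left out, called POU genes (3 to 6) and SALL genes (1 to 2) in D2PGCLCs against EpiLCs, and DPPA2 and DPPA4 targets (1 to 3) and network partners (3 to 5) in D6PGCLCs against ESCs, moved over 1.5 times.

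Differences near 0 changed sign, none past the threshold. With plain library totals these were, in D6PGCLCs against D4PGCLCs, Sox2 (0.0099), Nanog (0.035), Sall4 (0.020) and Trim71 (0.040), and Pou5f1 in D4PGCLCs against ESCs (0.0022) and D6PGCLCs against EpiLCs (0.016), Dppa2 in D4PGCLCs against D2PGCLCs (0.017), Dppa4 in D6PGCLCs against D2PGCLCs (0.12) and Trim71 in D2PGCLCs against ESCs (-0.0022). Pou5f1 was -0.0073 in D4PGCLCs against D2PGCLCs with those groups alone and 0.00018 in D4PGCLCs against ESCs with no filter. With 1 sample left out, Pou5f1 ranged from -0.040 to 0.11 in D4PGCLCs against D2PGCLCs, from -0.058 to 0.025 in D2PGCLCs against ESCs and from -0.061 to 0.090 in D4PGCLCs against ESCs. Nanog ranged from -0.18 to 0.027 in D6PGCLCs against D4PGCLCs and from -0.028 to 0.20 in D6PGCLCs against ESCs, and Lin28b from -0.11 to 0.17 and, in D2PGCLCs against ESCs, from -0.12 to 0.072. The other ranges were -0.067 to 0.22 (Utf1) and -0.20 to 0.028 (Dppa2) in D4PGCLCs against D2PGCLCs, -0.14 to 0.038 (Dppa4) in D6PGCLCs against D2PGCLCs, -0.13 to 0.0055 (Trim71) in D6PGCLCs against D4PGCLCs and -0.0054 to 0.15 (Trim71) in D2PGCLCs against ESCs.

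With the longest transcript as length, the log2 ratio of Lin28b over Lin28a was -3.79, -3.67, -3.45, -3.11 and -2.44 from ESCs to D6PGCLCs and that of Dppa2 over Dppa4 -1.29, -1.64, -1.17 and -1.53 from ESCs to D4PGCLCs. Lengths shift all groups alike. The cause of the other changes was not tested. At these depths every member had at least 390 counts, so replicate spread, not counting, limits the small differences.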
